A study of Mus musculus with 6 samples.

Results

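Genes of mitosis and chromosome segregation were followed in CT26 cells, a mouse colon carcinoma line of BALB/c origin. The set holds 53 genes named for their textbook roles in cell division, out of 53801 genes in the deposited tables, and all 53 were found by symbol. RNA-seq was done on 3 lines: the parental line, which was a bulk culture of barcoded CT26 cells recovered from tumors in BALB/c mice, and lines B04 and B64, each grown from 1 cell of such a tumor and carrying a barcode that was enriched under immune checkpoint blockade (ICB). All 3 lines carried the barcode vector and its puromycin resistance, and cells recovered from tumors had been selected with puromycin. All were grown in RPMI medium, and no treatment is named for these cultures before RNA was taken. The paper's discussion says that lines B04 and B64 were isolated after ICB treatment, and no ICB treatment is named for the parental line. The paper states that the clones' expression changes could predate ICB or be induced by it, which was not tested here. Each line gave 2 libraries, called replicates A and B. Each ICB-resistant line is 1 clone, so its values are those of that clone and not of resistant cells in general. The sample titles speak of tumors, whereas the study's methods describe cultured lines grown in duplicate, and nothing names separate cultures, so p-values measure the spread between these libraries, which may be technical. The smallest library held 19409204 expected counts and the largest 23472012, 1.21 times as many. The leukocyte genes Ptprc and Cd3e were at or under 0.01 TPM (a transcript level scaled by gene length and library total) in every library. The summed TPM of the leukocyte markers was 10.46 to 12.16 in the parental and B04 libraries and 40.29 and 36.67 in B64, where Cd68 gave most of it. The epithelial markers Krt18 and Krt20 were also higher in B64, with a summed epithelial TPM of 45.7 and 48.04 against 22.38 to 25.42 in the other libraries, while Epcam, Cdh1 and Vil1 were at or near 0 in all 3 lines. The part of these genes in the B64 values below was not tested.

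Mitosis begins when cyclin-dependent kinase Cdk1, bound to a B-type cyclin, is switched on by Cdc25 phosphatases. Chromosomes condense, their kinetochores are captured by spindle microtubules, and the spindle checkpoint holds the cell until every kinetochore is attached. Cdc20 then turns on the anaphase-promoting complex, separase cuts cohesin, kinesin motors move the chromosomes and build the midzone, and the cell divides by cytokinesis. Most of these genes are transcribed late in the cell cycle, so in a bulk culture their mRNA follows both how many cells are near division and how much each such cell makes.

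Mitosis genes were higher in line B04 than in the parental line. To ask how they differed, the normalized count (expected count divided by the library's DESeq2 size factor) was compared between lines in 1 fit of all 6 libraries, and a gene was called at a DESeq2 adjusted p under 0.05. In B04, 34 of the 53 genes were called higher and 19 were not called. No member was called lower, either by DESeq2 or by the quasi-likelihood test of edgeR, and 0 were lower at an unadjusted p under 0.05. Across the 13218 genes tested, 11.2% were called higher and 12.9% lower in B04. The median log2 fold change of the members was 0.27, against 0.00 for all genes tested. Both B04 libraries lay above both parental libraries in 48 members, against 32.2% of all genes tested. The changes were small: the lowest was -0.05 in Bub3, the highest 0.72 in Kif20a, and no member passed a 2-fold change in any comparison. In bulk RNA, a change in the share of cells in mitosis and a change in RNA per mitotic cell cannot be told apart.

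In line B64 the same 53 genes stood close to the parental level. Here 6 members were called higher and 3 lower, where 8.87% of all genes tested were called higher and 7.45% lower. The median log2 fold change was -0.03. Both B64 libraries lay above both parental libraries in 19 members and below them in 19, against 30.5% and 30.9% of all genes tested. The clones also differed from each other: in B64 against B04, 35 members were called lower, where 11.1% of 12855 genes tested were called lower and 13.1% higher. No member was called higher in B64 than in B04 by DESeq2 or edgeR, and 0 were at an unadjusted p under 0.05. The median of this difference was -0.25, and both B64 libraries lay below both B04 libraries in 49 members, against 33.4% of all genes tested. The comparisons of each clone with the parental line share the same parental libraries.

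**Figure D1:**
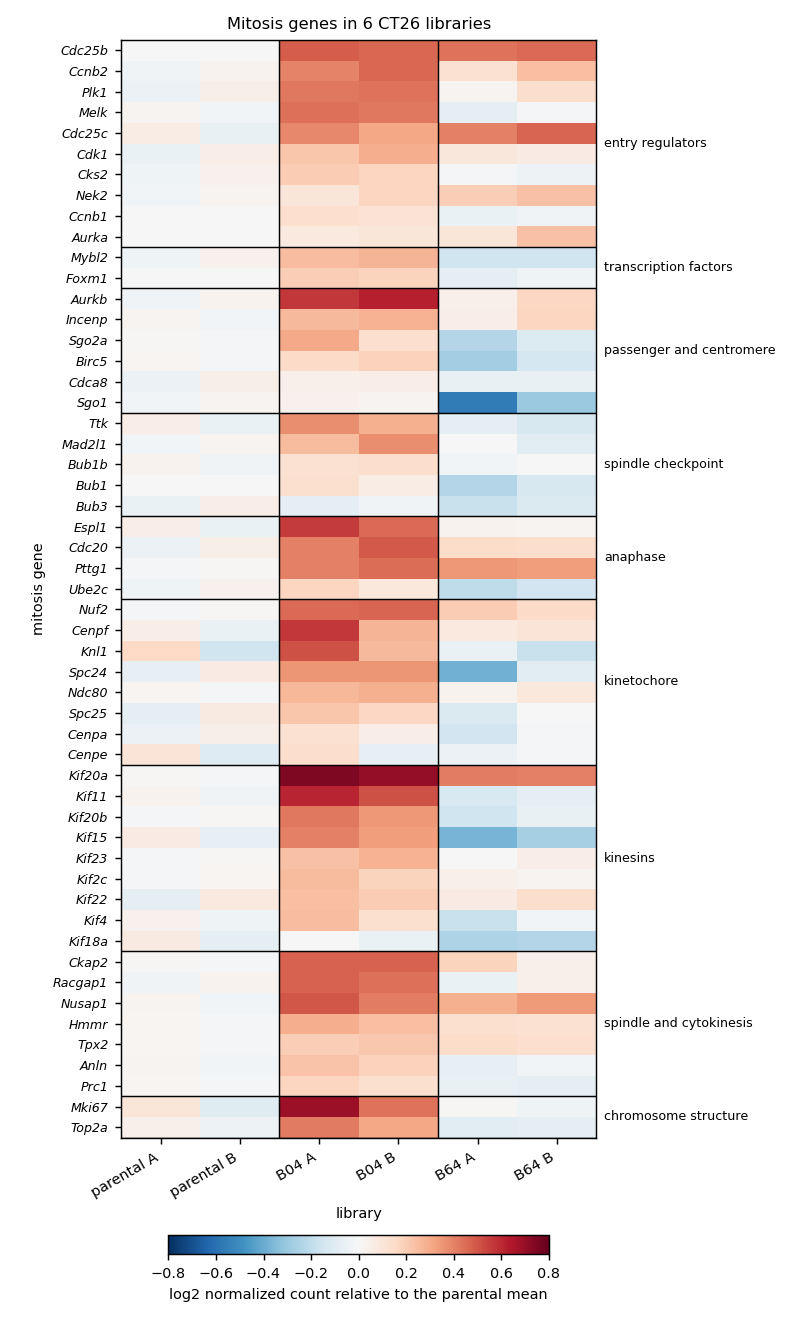
Each row is a mitosis gene, grouped by role, and each column a library; color gives the log2 normalized count relative to the mean of the 2 parental libraries (red higher, blue lower). The B04 columns are red in nearly every row, with medians of 0.26 and 0.274, while the B64 columns are mixed, with medians of -0.02 and -0.008.

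The shift in B04 was seen in each of its libraries. Relative to the parental mean, the members' median log2 level was 0.26 in B04 replicate A and 0.274 in B04 replicate B, where 51 and 50 of the 53 members were above that mean. It was -0.02 in B64 replicate A and -0.008 in B64 replicate B, where 24 and 26 members were above it. The 53 genes together took 0.594% and 0.582% of expected counts in the parental line, 0.746% and 0.725% in B04, and 0.581% and 0.593% in B64. By mean normalized count, B04 was the highest of the 3 lines for 48 members, B64 for 3 and the parental line for 2. Both B04 libraries lay above the other 4 libraries for 45 members, which held for 20.3% of all genes tested.

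Fragment length, read from RSEM's gene length minus its effective length, also differed between libraries. It was 271.8 to 277.3 bases in both parental libraries and B04 replicate A and 220.8 to 246.2 bases in B04 replicate B and both B64 libraries. With fragment-length class as a block, 19 members were called higher in B04 where 5.99% of all genes tested were, 2 higher in B64 where 1.82% were, and 20 lower in B64 than in B04 where 5.47% were. The calls in B04 lost under this block were those of Cdk1, Cdc25c, Foxm1, Mybl2, Incenp, Ttk, Mad2l1, Pttg1, Ndc80, Spc24, Kif15, Kif22, Kif23, Tpx2 and Hmmr. In B64 the calls of Kif20a and Cdc25b held, and of the clone differences given below those of Ccnb1, Foxm1 and Nuf2 were lost. The members' median was 0.26 in B04 under this block. Without B04 replicate B, which left parental and B04 libraries of long fragments only, the median in B04 was 0.26. Without B04 replicate A, the median in B04 was 0.27. In both cases fewer members, and a smaller share of all genes, were called higher in B04. Without B04 replicate A, B04 and B64 had short fragments only, and the median of B64 against B04 was -0.23. Fewer members were called lower in B64 than in B04 there and without B64 replicate A. The parental and B64 libraries do not share a fragment class, so between them the class and the line cannot be told apart except through B04.

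**Figure D2:**
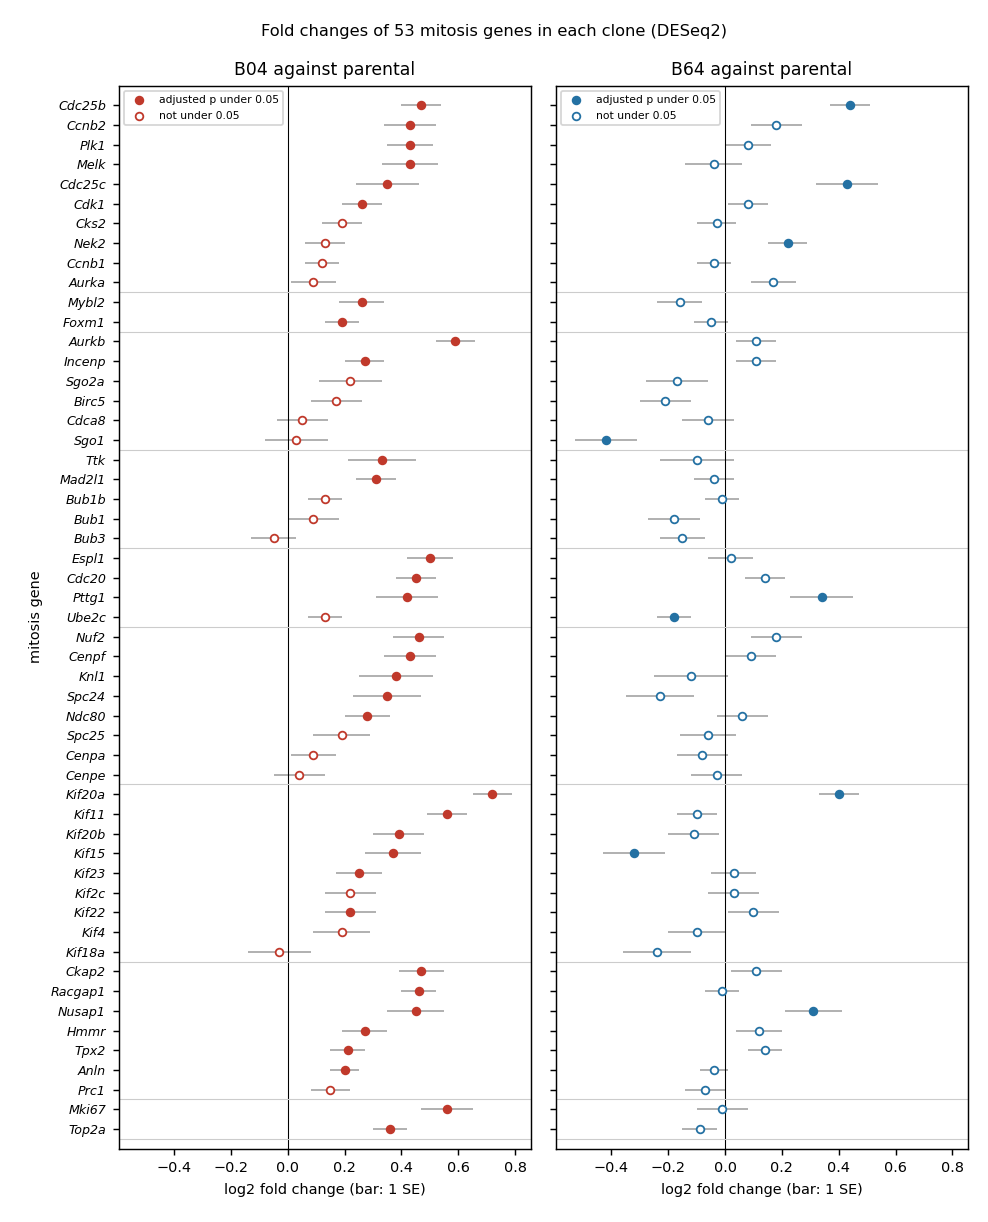
Points give the log2 fold change of each of 53 mitosis genes in B04 (left) and B64 (right) against the parental line, with bars of 1 standard error (SE); filled points have a DESeq2 adjusted p under 0.05 and grey lines separate roles. In B04 51 of 53 points lie to the right of 0, while in B64 23 lie to the right and 30 to the left.

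Many promoters of mitosis genes carry a cell cycle genes homology region (CHR), an element bound by the MuvB core of the DREAM and MYB-MuvB complexes, together with CCAAT boxes bound by NF-Y. As a description, the members' promoters were searched for both elements in the RefSeq table of GRCm38.p6, from 250 bases before to 50 bases after each gene's start. Of the 53 members, 46 were in that table, and Kif20a, Aurkb, Foxm1, Spc24, Tpx2, Incenp and Cdc25c were not. A CHR match (TTTGAA or TTCGAA, either strand) was present in 33 of 46 members (71.7%), against 21.7% of 27025 genes in the table. A CCAAT match on either strand was present in 32 (69.6%), against 41.1%. Both kinds were present in 27 (58.7%), against 8.61%. TTCGAA reads the same on both strands and was counted once, and in Cdca8 a CHR and a CCAAT match shared a base. The promoters of 4 members are shown: Cdk1 (entry), Cdc20 (anaphase), and Top2a and Mki67 (chromosome structure). Among the members described in every comparison, they were picked for having TTTGAA on the gene's strand in the 200 bases before the start. That each holds a CHR match is therefore a result of the choice. Each sequence runs 5′ to 3′ on the gene's strand and holds the 200 bases before the RefSeq start. Capitals mark CHR and CCAAT matches on either strand (TTCAAA and ATTGG are the same letters read on the opposite strand).
Cdk1: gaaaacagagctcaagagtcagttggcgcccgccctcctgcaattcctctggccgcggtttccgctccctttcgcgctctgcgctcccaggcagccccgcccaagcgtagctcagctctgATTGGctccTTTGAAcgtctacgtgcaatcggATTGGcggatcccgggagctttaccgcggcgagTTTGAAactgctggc
Cdc20: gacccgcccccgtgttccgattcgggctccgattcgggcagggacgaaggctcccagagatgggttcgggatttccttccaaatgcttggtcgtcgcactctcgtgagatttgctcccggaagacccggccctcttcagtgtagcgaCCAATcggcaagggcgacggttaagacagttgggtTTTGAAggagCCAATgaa
Top2a: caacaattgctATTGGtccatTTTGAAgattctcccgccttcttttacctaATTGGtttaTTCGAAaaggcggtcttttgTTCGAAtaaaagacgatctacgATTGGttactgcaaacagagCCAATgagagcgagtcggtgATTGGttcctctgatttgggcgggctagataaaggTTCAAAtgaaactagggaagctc
Mki67: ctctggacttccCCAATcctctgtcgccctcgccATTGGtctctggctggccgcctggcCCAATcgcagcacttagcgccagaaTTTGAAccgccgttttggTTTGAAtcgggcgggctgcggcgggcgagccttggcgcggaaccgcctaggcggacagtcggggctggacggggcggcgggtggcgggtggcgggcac

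The Cdk1 stretch is chr10:69352913-69353112 on the minus strand, with 2 CHR and 2 CCAAT matches. That of Cdc20 is chr4:118437344-118437543 on the minus strand, with 1 CHR and 2 CCAAT matches close to the start. That of Top2a is chr11:99024190-99024389 on the minus strand and is the richest of the 4, with 4 CHR and 5 CCAAT matches. That of Mki67 is chr7:135716380-135716579 on the minus strand, with 2 CHR and 3 CCAAT matches. A match is a description of letters and not a shown binding site. For the 3 members with more than 1 RefSeq start, a site was counted once, from the start listed first. Across the 46 members, 32 of 44 CHR matches began within 50 bases of the start, and the median CHR match began 1.5 bases before it, while the median of 71 CCAAT matches was 57 bases before it. A CHR within 50 bases of the start was present in 30 members (65.2%), against 6.12% of genes in the table. In B04 the median log2 fold change was 0.27 in members with a CHR, with 21 of 33 called higher, and 0.22 in those without, with 6 of 13 called higher. For CCAAT the order was the other way, at 0.22 with 16 of 32 called higher among members with it and 0.34 with 11 of 14 among those without. Neither difference was tested.

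**Figure D3:**
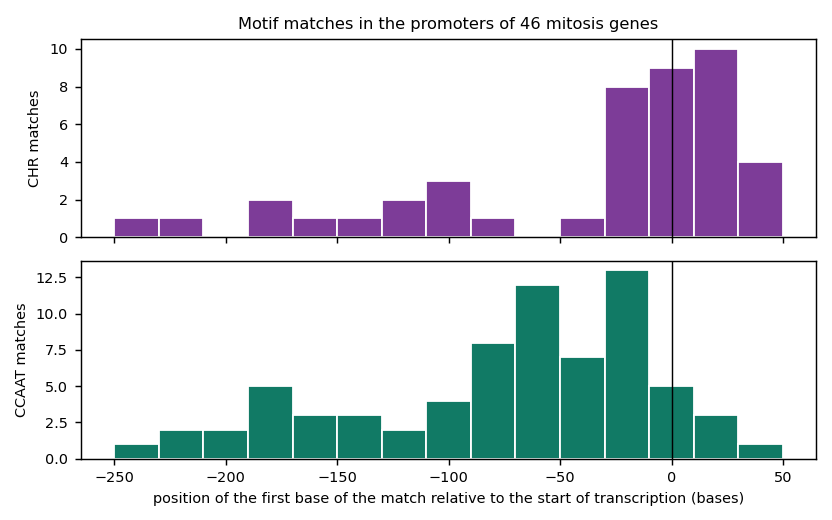
Bars count CHR matches (top) and CCAAT matches (bottom) in bins of position relative to the RefSeq start of transcription, in bases, over 46 mitosis genes, each site counted once. CHR matches gather around the start, with 32 of 44 within 50 bases of it, while CCAAT matches lie mostly before it.

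The entry regulators comprised Cdk1, its cyclins Ccnb1 and Ccnb2, its phosphatases Cdc25b and Cdc25c, its subunit Cks2, and the kinases Plk1, Aurka, Nek2 and Melk. Of these 10, 6 were called higher in B04 (median log2 fold change 0.30) and 3 in B64 (median 0.12). Normalized counts of Cdc25b were 2668 and 2656 in the parental line, 3728 and 3659 in B04, and 3593 and 3651 in B64. Both clones lay above the parental line without overlap and close to each other. Cdc25b, which opens the way to Cdk1 activity at the start of mitosis, rose by 0.47 ± 0.07 (SE, n = 2 per line) in B04 (DESeq2 adjusted p = 2.56e-11) and by 0.44 ± 0.07 in B64 (adjusted p = 9.08e-10). B64 and B04 differed by -0.03 ± 0.07 (DESeq2 adjusted p = 0.834). Cdc25c, a phosphatase of the same family, had counts of 728 and 669 in the parental line, 909 and 865 in B04 and 922 and 964 in B64. It rose by 0.35 ± 0.11 in B04 (DESeq2 adjusted p = 0.011) and by 0.43 ± 0.11 in B64 (adjusted p = 0.00141). The rise of Cdc25c in B64 was not called without parental replicate B, where it was 0.37, nor without B64 replicate B, where it was 0.40.

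Plk1, a kinase of spindle assembly and mitotic exit, had normalized counts of 1902 and 2037 in the parental line, 2637 and 2655 in B04, and 1997 and 2169 in B64. Only B04 stood apart from the other lines. Plk1 rose by 0.43 ± 0.08 in B04 (DESeq2 adjusted p = 1.57e-06), was 0.08 ± 0.08 from the parental level in B64 (adjusted p = 0.606), and was lower in B64 than in B04 by a log2 difference of -0.34 ± 0.08 (adjusted p = 0.00016). The last call was lost without B64 replicate A, where the difference was -0.28. Cdk1 itself had counts of 2408 and 2596, then 2921 and 3053 in B04, then 2657 and 2616 in B64. It rose by 0.26 ± 0.07 in B04 (DESeq2 adjusted p = 0.00373) without passing in B64 (0.08 ± 0.07, adjusted p = 0.602), and B64 and B04 differed by -0.18 ± 0.07 (adjusted p = 0.0597). The rise of Cdk1 in B04 was not called without parental replicate A (0.20) or without B04 replicate B (0.22).

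Of the cyclins of Cdk1, Ccnb2 was called in B04 and Ccnb1 was not, and a difference between them was not tested. Ccnb2 rose in B04 by 0.43 ± 0.09 (DESeq2 adjusted p = 2.45e-05), from 1265 and 1310 in the parental line to 1693 and 1771. Ccnb1 had 3735 and 3714 in the parental line, 4083 and 4027 in B04, and 3589 and 3656 in B64, and its difference of 0.12 ± 0.06 in B04 was not called (DESeq2 adjusted p = 0.154). The B04 value of Ccnb1 was 0.21 with effective length as an offset and 0.28 with limma on log2(TPM + 1), neither called. Ccnb1 was lower in B64 than in B04 by -0.16 ± 0.06 (adjusted p = 0.0428), a call lost when any of the 6 libraries was left out. Nek2, a kinase of centrosome separation, was called in B64 only against the parental line, at 0.22 ± 0.07 (DESeq2 adjusted p = 0.0135), from 2900 and 2989 to 3378 and 3466, and that call too was lost without any parental or B64 library, with values of 0.19 to 0.24. Aurka was not called in any comparison. Melk, a kinase expressed in dividing cells, rose in B04 by 0.43 ± 0.10 (adjusted p = 0.0001) and was 953 and 1002 in B64 against 1024 and 992 in the parental line.

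**Figure D4:**
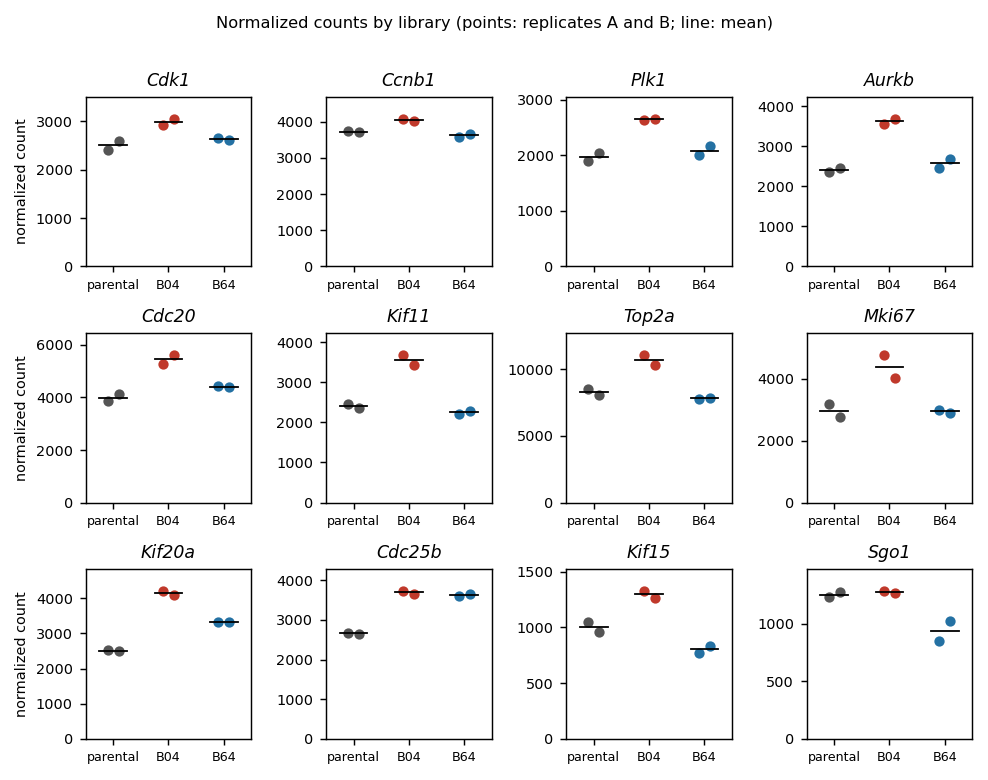
Normalized counts of 12 mitosis genes, by line; points are replicates A and B, the line is their mean, and each axis starts at 0. B04 has the highest mean of the 3 lines in all 12 genes, with B64 close to it in Cdc25b and the parental line close to it in Sgo1.

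Both transcription factors of the set were called higher in B04. Foxm1, which drives genes of the G2 phase and mitosis, had normalized counts of 3870 and 3855 in the parental line, 4423 and 4376 in B04, and 3663 and 3778 in B64. Its rise of 0.19 ± 0.06 in B04 passed (DESeq2 adjusted p = 0.014) but was lost without any parental or B04 library, at 0.18 to 0.19. B64 was lower than B04 by -0.24 ± 0.06 (DESeq2 adjusted p = 0.000943), a call lost without B04 replicate A (-0.23) or B64 replicate A (-0.22). Mybl2, the MYB protein of the MYB-MuvB complex, had 1853 and 1946 in the parental line, 2257 and 2296 in B04, and 1700 in each B64 library. Every B04 library lay above and every B64 library below the parental ones. It rose by 0.26 ± 0.08 in B04 (DESeq2 adjusted p = 0.0053), did not pass in B64 (-0.16 ± 0.08, adjusted p = 0.176), and was lower in B64 than in B04 by -0.42 ± 0.08 (adjusted p = 1.57e-06).

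The chromosomal passenger complex, which corrects faulty attachments and guides cytokinesis, was uneven. Its kinase Aurkb had normalized counts of 2350 and 2446 in the parental line, 3551 and 3684 in B04, and 2467 and 2690 in B64. By this count B04 stood far above the other 4 libraries, which lay near each other. The TPM of Aurkb was 80.85 and 80.09 in the parental line, 126.89 and 164.68 in B04, and 101.66 and 100.71 in B64. On that scale B64 lay between the other lines. Its RSEM length was 1747 to 1786 bases in the libraries of long fragments and 1437 to 1632 in those of short ones. Aurkb (chromosome 11, 69045647 to 69051664, GRCm38) rose by 0.59 ± 0.07 in B04 (DESeq2 adjusted p = 6.3e-14), the second largest rise among the 53 genes after Kif20a. It was 0.11 ± 0.07 in B64 (adjusted p = 0.411), and B64 was lower than B04 by -0.49 ± 0.07 (adjusted p = 1.26e-09). Of its partners, the scaffold Incenp rose in B04 by 0.27 ± 0.07 (DESeq2 adjusted p = 0.000703), whereas Birc5 (0.17 ± 0.09, adjusted p = 0.165) and Cdca8 (0.05 ± 0.09, adjusted p = 0.798) did not pass. Birc5 was lower in B64 than in B04 by -0.38 ± 0.09 (adjusted p = 0.000207).

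Shugoshin Sgo1, which guards centromeric cohesin, showed the reverse picture. Its normalized counts were 1229 and 1270 in the parental line, 1282 and 1269 in B04, and 846 and 1019 in B64. B04 and parental libraries ran together and both B64 libraries lay below them. Sgo1 (chromosome 17, 53674786 to 53689333) differed by 0.03 ± 0.11 in B04 (DESeq2 adjusted p = 0.899) and fell in B64 with a log2 fold change of -0.42 ± 0.11 (adjusted p = 0.0012), the largest fall of any member against the parental line. That call was lost without B64 replicate A, where the value was -0.29, and without parental replicate B (-0.40). Against B04 the log2 difference was -0.45 ± 0.11 (adjusted p = 0.000257), and it was -0.32 and not called without B64 replicate A. Sgo2a had values of 0.22 ± 0.11 in B04 (adjusted p = 0.119) and -0.17 ± 0.11 in B64 (adjusted p = 0.348).

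Among the 5 spindle checkpoint genes, 2 were called higher in B04, and the median log2 fold change was 0.13. Mad2l1, which restrains Cdc20 until kinetochores are attached, had normalized counts of 3164 and 3272 in the parental line, 3836 and 4160 in B04, and 3217 and 3029 in B64. It rose by 0.31 ± 0.07 in B04 (DESeq2 adjusted p = 0.000133) and was lower in B64 than in B04 by -0.36 ± 0.07 (adjusted p = 9.2e-06). The kinase Ttk rose by 0.33 ± 0.12 (DESeq2 adjusted p = 0.033), from 636 and 589 to 793 and 745. Bub1b, the checkpoint protein BubR1, had 3889 and 3742 in the parental line, 4149 and 4210 in B04, and 3763 and 3825 in B64. B04 was above both other lines without overlap, but its difference of 0.13 ± 0.06 was not called (DESeq2 adjusted p = 0.124), nor was B64 against the parental line (-0.01 ± 0.06, adjusted p = 0.968). On the log2(TPM + 1) scale with limma, Bub1b passed in B04 at 0.33. Bub1 and Bub3 had values of 0.09 ± 0.09 (adjusted p = 0.515) and -0.05 ± 0.08 (adjusted p = 0.725) in B04.

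Of the 4 anaphase genes, 3 were called higher in B04, and their median log2 fold change of 0.44 was above that of the other roles but chromosome structure. Cdc20, the activator of the anaphase-promoting complex, had normalized counts of 3859 and 4132 in the parental line, 5285 and 5618 in B04, and 4429 and 4405 in B64. B64 libraries lay between the other lines without overlapping either. Cdc20 rose by 0.45 ± 0.07 in B04 (DESeq2 adjusted p = 2.75e-10), did not pass in B64 (0.14 ± 0.07, adjusted p = 0.128), and was lower in B64 than in B04 by -0.30 ± 0.07 (adjusted p = 4.3e-05).

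Securin, the product of Pttg1, and separase, the product of Espl1, hold and cut the link between sister chromatids. Pttg1 had counts of 699 and 711 in the parental line, 931 and 962 in B04, and 896 and 890 in B64, so both clones were above the parental line. It rose by 0.42 ± 0.11 in B04 (DESeq2 adjusted p = 0.000727) and by 0.34 ± 0.11 in B64 (adjusted p = 0.014), and the B64 call was lost without any parental or B64 library, at 0.33 to 0.35. Espl1 had 2134 and 1979 in the parental line, 3023 and 2808 in B04, and 2097 and 2085 in B64. It rose by 0.50 ± 0.08 in B04 alone (DESeq2 adjusted p = 3.9e-09, against 0.02 ± 0.08 and adjusted p = 0.91 in B64), and B64 was lower than B04 by -0.48 ± 0.08 (adjusted p = 2.42e-08). The RSEM length of Espl1 was 3183 bases in B64 replicate B and 4679 to 5351 bases in the other libraries. With effective length as an offset the rise in B04 was 0.44 and no longer called, the B64 to B04 difference became 0.00, and the TPM of Espl1 was 24.92 and 36.79 in B64 against 33.39 and 29.67 in B04.

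Ube2c, the ubiquitin-conjugating enzyme of the same complex, showed another order. It had normalized counts of 5412 and 5690 in the parental line, 6258 and 5874 in B04, and 4822 and 4983 in B64. It fell in B64 with a log2 fold change of -0.18 ± 0.06 (DESeq2 adjusted p = 0.0317) and was 0.13 ± 0.06 in B04 (adjusted p = 0.131). The difference between B64 and B04 was -0.31 ± 0.06 (adjusted p = 1.43e-05).

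Kinetochore genes were called higher in B04 in 5 of 8 cases (Nuf2, Cenpf, Knl1, Spc24 and Ndc80), with a median of 0.31. Nuf2, a subunit of the Ndc80 complex that holds microtubules, had normalized counts of 1177 and 1190 in the parental line, 1622 and 1635 in B04, and 1361 and 1314 in B64. It rose by 0.46 ± 0.09 in B04 (DESeq2 adjusted p = 3.09e-06), did not pass in B64 (0.18 ± 0.09, adjusted p = 0.188), and was lower in B64 than in B04 by -0.28 ± 0.09 (adjusted p = 0.00784). That last call was lost without any B04 or B64 library. The 3 other subunits of that complex ranged in B04 from 0.19 ± 0.10 in Spc25 (adjusted p = 0.149) through 0.28 ± 0.08 in Ndc80 (adjusted p = 0.00671) to 0.35 ± 0.12 in Spc24 (adjusted p = 0.0133). Knl1, the scaffold that recruits checkpoint proteins, rose by 0.38 ± 0.13 in B04 (DESeq2 adjusted p = 0.0134). Its libraries also spread widely, at 1056 and 850 in the parental line and 1347 and 1132 in B04. Cenpa, the histone of centromeres, and Cenpe, a kinetochore motor, were not called in any comparison, and their values in B04 were 0.09 ± 0.08 and 0.04 ± 0.09.

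The kinesins held the widest range of changes. In B04, 6 of 9 were called higher, with a median of 0.25. Kif20a, a midzone motor of cytokinesis, had normalized counts of 2531 and 2494 in the parental line, 4208 and 4086 in B04, and 3333 and 3316 in B64. The 3 lines formed separate steps, with B04 highest. Kif20a rose by 0.72 ± 0.07 in B04 (DESeq2 adjusted p = 1e-25) and by 0.40 ± 0.07 in B64 (adjusted p = 5.71e-08), and B64 was lower than B04 by -0.32 ± 0.07 (adjusted p = 1.49e-05). Its counts held fractions in all 6 libraries, which marks reads that RSEM divided among genes, so its level is uncertain. The same was true in at least 1 library for 8 members in all, the others being Ccnb1, Kif4, Cks2, Nek2, Sgo2a, Prc1 and Nusap1.

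Kif11, the motor that pushes spindle poles apart, had normalized counts of 2456 and 2359 in the parental line, 3678 and 3425 in B04, and 2210 and 2286 in B64. B04 was far above, and both B64 libraries were just below the parental ones. Kif11 (chromosome 19, 37376403 to 37421859) rose by 0.56 ± 0.07 in B04 (DESeq2 adjusted p = 1.11e-12), did not pass in B64 (-0.10 ± 0.07, adjusted p = 0.452), and was lower in B64 than in B04 by -0.66 ± 0.07 (adjusted p = 3.18e-17). Kif20b, a motor related to Kif20a that also acts in cytokinesis, had 1262 and 1275 in the parental line, 1702 and 1611 in B04, and 1136 and 1215 in B64. It rose by 0.39 ± 0.09 in B04 (DESeq2 adjusted p = 0.000231) but not in B64 (-0.11 ± 0.09, adjusted p = 0.52), and B64 was lower than B04 by -0.49 ± 0.09 (adjusted p = 1.19e-06).

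Kif15, a motor that backs up Kif11 on the spindle, was the sole member called in opposite directions in the clones. Its normalized counts were 1048 and 961 in the parental line, 1325 and 1265 in B04, and 774 and 834 in B64. Kif15 (chromosome 9, 122951046 to 123018733) rose by 0.37 ± 0.10 in B04 (DESeq2 adjusted p = 0.00271), fell in B64 with a log2 fold change of -0.32 ± 0.11 (adjusted p = 0.0194), and was lower in B64 than in B04 by -0.69 ± 0.11 (adjusted p = 1.56e-09). The fall in B64 was lost when any library was left out, with values of -0.39 to -0.26, and the rise in B04 was lost without parental replicate B (0.30) or B04 replicate A (0.33). RSEM gave Kif15 a length of 3194, 2960 and 2880 bases in the long-fragment libraries and 1927, 2074 and 1970 in the short-fragment ones. Its TPM was 18.55 and 17.69 in the parental line, 26.78 and 40.24 in B04, and 22.11 and 25.07 in B64. On that scale B64 lay above the parental line, and with effective length as an offset the log2 fold change in B64 was 0.34 and the clone difference, then -0.47, was not called. RSEM length varied by more than 1.5 times between libraries in 2 members, Kif15 and Espl1.

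Of the other spindle and cytokinesis genes, 6 of 7 were called higher in B04, with a median of 0.27. Racgap1, the GTPase-activating subunit of centralspindlin, had normalized counts of 6170 and 6396 in the parental line, 8700 and 8536 in B04, and 6045 and 6457 in B64. The parental and B64 libraries overlapped and B04 stood apart. It rose by 0.46 ± 0.06 in B04 (DESeq2 adjusted p = 5.02e-13), was -0.01 ± 0.06 in B64 (adjusted p = 0.969), and was lower in B64 than in B04 by -0.46 ± 0.06 (adjusted p = 1.8e-13). Its centralspindlin partner, the kinesin Kif23, rose by 0.25 ± 0.08 (DESeq2 adjusted p = 0.00572). Ckap2, a protein of spindle microtubules, had 1483 and 1469 in the parental line, 2048 and 2047 in B04, and 1667 and 1519 in B64. It rose by 0.47 ± 0.08 in B04 (DESeq2 adjusted p = 5.4e-07), was 0.11 ± 0.09 in B64 (adjusted p = 0.473), and was lower in B64 than in B04 by -0.36 ± 0.09 (adjusted p = 0.000205), which was -0.30 and not called without B64 replicate B. Nusap1, which bundles microtubules near chromosomes, rose in both clones, by 0.45 ± 0.10 in B04 (adjusted p = 5.69e-05) and 0.31 ± 0.10 in B64 (adjusted p = 0.0154).

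Both chromosome structure genes were called higher in B04, with a median of 0.46. Top2a, the topoisomerase that untangles sister chromatids, had normalized counts of 8537 and 8065 in the parental line, 11083 and 10294 in B04, and 7803 and 7848 in B64. It rose by 0.36 ± 0.06 in B04 (DESeq2 adjusted p = 1.86e-08), was -0.09 ± 0.06 in B64 (adjusted p = 0.402), and was lower in B64 than in B04 by -0.45 ± 0.06 (adjusted p = 1.32e-12). Mki67, whose product Ki-67 coats mitotic chromosomes and serves as a marker of dividing cells, had 3168 and 2775 in the parental line, 4765 and 4010 in B04, and 2988 and 2896 in B64. B04 lay above all other libraries, though its own replicates were further apart than those of most members. Mki67 rose by 0.56 ± 0.09 in B04 (DESeq2 adjusted p = 6.37e-09), was -0.01 ± 0.09 in B64 (adjusted p = 0.958), and was lower in B64 than in B04 by -0.58 ± 0.09 (adjusted p = 2.26e-09).

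Set side by side, 28 members were called in B04 but not in B64 against the parental line, and in 23 of these B64 was also called lower than B04. A further 5 (Kif20a, Nusap1, Pttg1, Cdc25b and Cdc25c) were called higher in both clones, 1 (Nek2) higher in B64 alone, and 2 (Sgo1 and Ube2c) lower in B64 alone. The 8 members called in no comparison were Aurka, Bub1b, Bub3, Cenpa, Cenpe, Kif2c, Kif18a and Cdca8. Of the 6 members called higher in B64, Kif20a was the sole 1 that was also called different between B64 and B04.

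Replicates of a line differed little in these genes. The median absolute log2 ratio of replicate A to replicate B was 0.05 in each line, against 0.12, 0.10 and 0.10 over all genes tested in the parental, B04 and B64 lines. The widest gaps were 0.31 in Knl1 in the parental line, 0.30 in Cenpf in B04 and -0.30 in Spc24 in B64. Across the 53 genes, which share their libraries and are not independent, the log2 ratio of A to B rose with log2 gene length in the parental line (Pearson r = 0.67) and B04 (0.64) more than in B64 (0.20). The fold changes between lines followed gene length less closely, with r = 0.16 for B04, -0.07 for B64 and -0.22 for B64 against B04.

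By TPM the members spanned a wide range in all 3 lines. Over the 6 libraries the mean TPM was highest in Ube2c (402.2), Cks2 (283.7), Cdk1 (259.9) and Racgap1 (245.6), and lowest in Ttk (13.9), Kif18a (13.4), Sgo2a (11.2) and Knl1 (9.2). Ube2c was 405.5 ± 1.4 TPM in the parental line, 450.7 ± 32.34 in B04 and 350.3 ± 11.14 in B64 (mean ± SD, n = 2). Cdk1 was 233.8 ± 0.62 TPM in the parental line, 295.4 ± 2.38 in B04 and 250.5 ± 1.86 in B64. The summed TPM of the 53 genes was 3673 and 3543.5 in the parental line, 4542.8 and 4503.8 in B04, and 3633.5 and 3710.8 in B64.

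Genes of the same machinery outside the set were read the same way, from lists of 111 further mitotic genes and 30 S phase genes. Of the 111, 51 were called higher and 3 lower in B04, with a median log2 fold change of 0.26, where 11.2% of all genes tested were called higher and 12.9% lower. With fragment-length class as a block, 28 were called higher, where 5.99% of all genes tested were. In B64 6 were called higher and 13 lower, with a median of -0.06, where 8.87% of all genes tested were called higher and 7.45% lower. Under the same block 0 were called in either direction in B64, where 1.82% of all genes tested were called higher. Condensin, which compacts chromosomes, was called higher in B04 in 6 of 8 subunits (median 0.42). Its subunit Ncapd2 had normalized counts of 2731 and 2836 in the parental line, 4202 and 3953 in B04 and 2818 and 2764 in B64, and rose by 0.55 ± 0.07 in B04 (DESeq2 adjusted p = 9.16e-14). Further spindle and cytokinesis genes were called higher in 16 of 21 cases (median 0.32; 10 under the block), and further mitotic kinases, phosphatases and cyclins in 6 of 14 (median 0.30; 2 under the block). The inner kinetochore and Mis12 list was mixed, with 9 higher and 2 lower of 29 (median 0.25; 4 higher under the block), though it held the largest rises: Cenpp at 1.10 ± 0.24 (DESeq2 adjusted p = 8.93e-05) and Cenpm at 1.08 ± 0.11 (adjusted p = 1.63e-21). Cenpm went from 629 and 662 in the parental line to 1316 and 1405 in B04, with 720 and 759 in B64. Cenpp had low counts, at 120 and 100 in the parental line and 242 and 229 in B04. These held fractions in all 6 libraries, so its level is uncertain.

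In B04 5 of 12 cohesin genes (median 0.16) and 6 of 16 genes of the anaphase-promoting complex (median 0.08) were called higher, where 11.2% of all genes tested were. Under the fragment-length block these counts were 3 and 1, where 5.99% of all genes tested were called higher. The count for the anaphase-promoting complex was then near that share. Subunits of DREAM and MYB-MuvB, complexes whose MuvB core binds CHR elements, had 3 of 11 higher and 1 lower in B04 (median 0.05), where 12.9% of all genes tested were lower. In B64 4 of these subunits were lower (median -0.24), where 8.87% of all genes tested were called higher and 7.45% lower. Under the block 2 were higher and 0 lower in B04, and 0 were called in B64. The pocket protein Rbl2 rose in B04 by 0.78 ± 0.14 (DESeq2 adjusted p = 4.05e-07), from 384 and 373 to 643 and 660, while E2f5 fell with a log2 fold change of -0.76 ± 0.20 (adjusted p = 0.00142), from 259 and 286 to 166 and 156, a call lost under the fragment-length block (-0.71, adjusted p = 0.0945). S phase genes, which act before mitosis, were called higher in B04 in 19 of 30 cases, with a median of 0.34, and in 13 under the block. In B64 1 was called higher and 3 lower (median -0.01), and 0 were called under the block. S phase genes, like mitosis genes, were thus called higher mainly in B04.

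**Figure D5:**
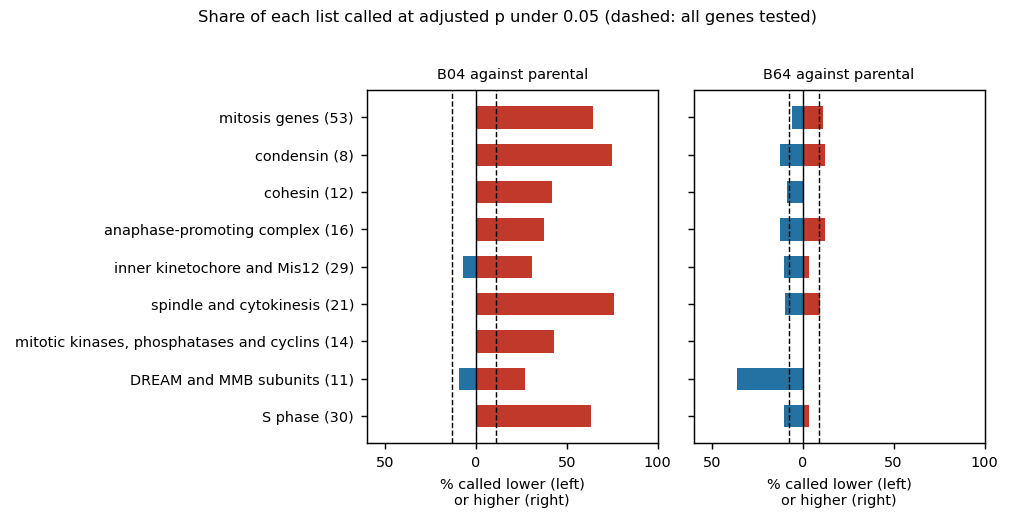
Bars give the percent of each gene list (size in brackets) called lower (blue, left) or higher (red, right) at a DESeq2 adjusted p under 0.05 in B04 (left panel) and B64 (right panel) against the parental line; dashed lines are the percent of all genes tested. In B04 every list has more genes called higher than lower, while in B64 the bars are short and the DREAM and MMB (MYB-MuvB) list has 4 of 11 genes lower. With fragment-length class as a block, 0 of these 11 were called lower in B64.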

How the data were processed

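RNA-seq was done on 2 libraries each of parental CT26, line B04 and line B64, and groups were taken from the sample labels. Poly(A) RNA was selected with oligo(dT) beads, and strandedness is not given in the sources used here. The authors aligned paired reads to mm10 with STAR and quantified genes with RSEM. The deposited tables hold an expected count per gene, in which reads that match several genes are divided among them, and may hold fractions. The authors also deposited TPM, which RSEM scaled by effective length and library total, and the length and effective length of each gene. The FPKM values were not used, and the annotation release is not given in the sources used here. Symbols and coordinates were taken from GENCODE M21 (GRCm38, 1-based). A symbol was found for 53620 of 53801 gene identifiers.

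The members, roles and other gene lists were chosen with earlier results of these data known. Expected counts were rounded and tested on all genes with DESeq2 1.42.0 (R 4.3.3; Wald test, line as the only term, independent filtering, no shrinkage), with p-values adjusted by Benjamini-Hochberg over all genes tested. Log2 fold changes are given ± SE. All adjusted p-values are from DESeq2 unless edgeR is named. Members described with full statistics were Cdk1, Ccnb1, Plk1, Aurkb, Bub1b, Cdc20, Kif11, Top2a, Mki67 and Foxm1, the 6 further called members per comparison with the smallest adjusted p and no overlap between lines, any called past 2-fold, and any called in opposite directions in the clones. Other members are named with values where a count or a role needed it, after their values were seen. Alternatives were edgeR 4.0.16 (quasi-likelihood, TMM), TMM factors, a mean count of at least 10, no filter, only the 2 lines compared, replicate letter or fragment-length class (split at 260 bases) as a block, effective length as an offset, limma 3.58.1 on log2(TPM + 1) and log2(TPM + 0.1) for genes with a mean TPM of at least 0.5, an adjusted p under 0.01, and leaving out each library. The scripts were tested on simulated counts. Promoter sequences are from RefSeq (GRCm38.p6).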

Additional observations from a re-analysis of the deposited data

Results flagged for a closer look

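Set against each other, the clones differed in 18 of the members described in full, each by the DESeq2 test of B64 against B04 at an adjusted p under 0.05, and in each the B64 value was lower. The log2 differences were -0.69 in Kif15, -0.66 in Kif11, -0.58 in Mki67, -0.49 in Aurkb and in Kif20b, -0.48 in Espl1, -0.46 in Racgap1, -0.45 in Top2a and in Sgo1, and -0.42 in Mybl2. They were -0.36 in Mad2l1 and in Ckap2, -0.34 in Plk1, -0.32 in Kif20a, -0.30 in Cdc20, -0.28 in Nuf2, -0.24 in Foxm1 and -0.16 in Ccnb1. The values of each clone against the parental line differ in kind among these genes. In Kif11, Mki67, Racgap1 and Top2a the B04 value was called and the B64 value was not, while in Sgo1 the B64 value was called and the B04 value was not. Blocking on fragment-length class left the differences of Ccnb1, Foxm1 and Nuf2 uncalled. With effective length as an offset, the differences of Kif15 and Espl1 were smaller and not called. The mean TPM of Espl1 was 31.5 in B04 and 30.9 in B64. When each of the 6 libraries was left out in turn, Ccnb1 was called in 0 of 6 fits, Nuf2 in 2, Foxm1 in 4, and Plk1, Ckap2 and Sgo1 in 5, while the other differences were called in all 6. No cause was tested.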

How the results depend on the processing

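The count of members called in B04 was 34 and fell to 19 with fragment-length class as a block. It ranged from 21 to 32 when 1 library was left out, with 21 without B04 replicate A and 22 without B04 replicate B, and from 28 to 38 under the other alternatives. The median of 0.27 in B04 became 0.33 and 0.34 with limma on log2(TPM + 1) and log2(TPM + 0.1), where the median of all genes was 0.06 and 0.07, and ranged from 0.26 to 0.28 without 1 library. In B64 the count of 9 became 2 with the fragment-length block, 5 with effective length as an offset, 4 with each limma fit and 4 at an adjusted p under 0.01. It ranged from 2 to 8 without 1 library, with 4 without parental replicate A, 2 without parental replicate B and 3 without either B64 library. The B64 median of -0.03 became 0.02 with the fragment-length block, 0.00 with the offset, 0.04 and 0.05 with limma, and ranged from -0.03 to 0.01 without 1 library. For B64 against B04 the count of 35 became 20 with the fragment-length block and ranged from 18 to 31 without 1 library, with 20 without B04 replicate A and 18 without B64 replicate A, while the median of -0.25 became -0.28 and -0.29 with limma and ranged from -0.30 to -0.22 without 1 library. Leaving out a library leaves 1 in its line, which was assumed to vary like the others. Values against the parental line that changed sign were all in B64: Ccnb1 (0.00 with the offset, 0.04 and 0.05 with limma), Bub1b (0.02, 0.07 and 0.07 in the same fits, and -0.04 to 0.02 without 1 library, where 0.00 was without B64 replicate A), Kif11, Top2a and Mki67 (0.00, 0.02 and 0.23 with the fragment-length block), Mki67 (0.02 and 0.03 with limma, and -0.11 to 0.08 without 1 library), Foxm1 (0.00 in each limma fit) and Kif15 (0.34 with the offset, 0.36 and 0.38 with limma). Espl1 in B64 against B04 became 0.00 with the offset. The cause was not tested. Of 850 values of named members under alternatives, 740 kept direction and side of the threshold, 77 lost a call, 12 gained one and 21 changed sign. With the replicate letter as a block, 32 members were called in B04, 7 in B64 and 30 in B64 against B04, and among named members the calls of Kif15 in B64 and Ccnb1 in B64 against B04 were lost. Deviations of same-lettered libraries correlated little, at 0.11, 0.01 and -0.05 over 11996 genes. These correlations cannot show whether a letter marks a shared culture or preparation. Normalized counts of members ran from 560 to 11083, and members with lower counts had larger SEs: 0.06 in Top2a and 0.12 in Ttk in B04.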

Other observations

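Outside the 53 members, the combination of a CHR match within 50 bases of the start and a CCAAT match was present in 169 tested genes of the RefSeq promoter table. Of these, 40 (23.7%) were called higher and 17 (10.1%) lower in B04, against 11.0% and 14.0% of the 9350 tested genes without it. In B64 against the parental line the shares were 8.88% higher and 9.47% lower, against 9.36% and 8.02%. In B64 against B04, 46 of 165 (27.9%) were called lower, against 11.3% of genes without it. This split is the most extreme of 5 that were made: in B04 the shares called higher with and without the match were 12.7% and 10.9% for CHR anywhere, 12.2% and 10.4% for CCAAT anywhere, 69 of 383 genes and 10.9% for CHR within 50 bases, and 16.1% and 10.8% for CHR and CCAAT anywhere. Among the members themselves, 14 of 25 with the combination and 13 of 21 without it were called higher in B04. The splits were chosen after the members' values were seen, were not tested, and include mitotic genes that are not members.

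Among cohesin regulators, the DESeq2 values of Pds5b, which releases or holds cohesin on chromosomes, were 0.07 ± 0.08 in B04 (adjusted p = 0.661) and -0.40 ± 0.08 in B64 (adjusted p = 5.29e-05), while Cdca5 and Esco2, which secure cohesion in S phase, each rose by 0.48 in B04 (SE 0.13 and 0.14, adjusted p = 0.00259 and 0.00361). Tfdp2, a dimer partner of E2F proteins, rose by 0.48 ± 0.13 in B04 (adjusted p = 0.00155) and fell in B64 with a log2 fold change of -0.36 ± 0.13 (adjusted p = 0.0393), and B64 was lower than B04 by -0.84 ± 0.13 (adjusted p = 3.31e-09). Under the block on fragment length, the calls of Pds5b in B64 (-0.31, adjusted p = 0.635), Cdca5 and Esco2 in B04 (adjusted p = 0.0836 and 0.0895) and Tfdp2 in B64 (-0.26, adjusted p = 1.0) were lost. These genes were named after their values were seen.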
